A study of Mus musculus with 6 samples.

Results

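The genes described here fill, read and empty the calcium store of the muscle cell. They were the ryanodine receptor gene Ryr1, the inositol trisphosphate (IP3) receptor genes Itpr1, Itpr2 and Itpr3, the store pump genes Atp2a1 and Atp2a2, the store-operated entry genes Stim1 and Orai1, the plasma membrane pump gene Atp2b1 and the calcineurin regulator gene Rcan1. They were chosen by symbol, 10 of the 22375 rows of the expression table, and each had 1 row. RNA-seq was performed on C2C12, an established line of mouse myoblasts, the precursors that fuse into skeletal muscle fibres. The CON group held 3 libraries of control cells without stretching, and the 4H group held 3 libraries of cells stretched cyclically at 15% elongation for 4 h on elastic plates coated with polylysine. The labels give no genetic alteration and no added agent in either group. All 6 libraries came from 1 cell line, and whether the CON cells lay on the same plates is not given in the sources used here. The labels call the libraries of a group replicate biosamples without saying that they were separate cultures, so the p-values measure only the spread between these samples, which may be technical.

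The sarcoplasmic or endoplasmic reticulum is the calcium store of the cell. Pumps of the SERCA family load it, and ryanodine and IP3 receptors let the calcium out, the former coupled in skeletal muscle to the dihydropyridine receptor and the latter opened by IP3 from phospholipase C. When the store empties, STIM proteins in its membrane sense the loss and open ORAI channels in the plasma membrane, while pumps of the PMCA family push calcium out of the cell. Calcium that stays in the cytosol binds calmodulin and activates the phosphatase calcineurin, which moves NFAT transcription factors into the nucleus and is itself bound by RCAN proteins.

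The values were FPKM, read fragments scaled to the length of the transcript and to the mapped fragments of the library, and so a level per length. Their sum was between 395790 and 397260 in the CON libraries and between 385146 and 387516 in the 4H libraries. The depth is unknown. Of the 6 myoblast markers, 5 reached a mean of 0.5 FPKM in a group, and the 6 summed to 123 to 125 FPKM in the CON libraries and 149 to 156 FPKM in the 4H libraries. Most of that sum was Des (71.6 FPKM in CON and 88.8 FPKM in 4H on average), and single markers moved apart. Myod1 rose from 5.13 to 18.2 FPKM (limma adjusted p = 1.56e-06), while Myf5 fell from 15.8 to 9.82 FPKM (limma adjusted p = 0.000347). Only Mymk of the 7 myotube markers reached that level, Myh8 was listed at 0 throughout, and the 7 summed to 0.729 to 1.11 FPKM in CON and 1.25 to 1.81 FPKM in 4H. Within that sum Mymk went from 0.525 to 1.01 FPKM on average and Tnnt3 from 0.078 to 0.401 FPKM, while Myog went from 0.217 to 0.026 FPKM. Of the other cell types, fibroblast markers (Pdgfra and Dcn of 4 reached 0.5 FPKM) summed to 3.74 to 4.19 FPKM in CON and 5.999 to 7.63 FPKM in 4H. The leukocyte marker Cd68 went from 7.57 to 16.4 FPKM on average, while Ptprc and Adgre1 were listed at 0 in all libraries. None of the 3 endothelial or 2 epithelial markers reached 0.5 FPKM. The part of these shifts in the results that follow was not tested. In bulk RNA, fewer cells of a type and less RNA per cell cannot be told apart.

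Among the promoters of these genes, 4 windows are shown because they belong to IP3 receptor paralogs with unlike changes and to a gene whose value sums over its starts. RefSeq gives windows for 2 starts of Rcan1, and the gene as GENCODE annotates it begins farther upstream than both. Transcripts from the downstream start are a known target of calcineurin and NFAT, yet the table gives 1 value for the gene. Each window holds the 250 bases before a start (RefSeq, GRCm38.p6), 5′ to 3′ on the strand of the gene, and none overlapped an annotated exon. Capitals mark the NFAT core GGAAA on either strand. The windows are Rcan1 downstream start at chr16:92400079-92400328, Rcan1 upstream start at chr16:92466170-92466419 and Itpr2 at chr6:146502224-146502473, all on the minus strand, and Itpr3 at chr17:27057054-27057303 on the plus strand.
Rcan1 downstream start: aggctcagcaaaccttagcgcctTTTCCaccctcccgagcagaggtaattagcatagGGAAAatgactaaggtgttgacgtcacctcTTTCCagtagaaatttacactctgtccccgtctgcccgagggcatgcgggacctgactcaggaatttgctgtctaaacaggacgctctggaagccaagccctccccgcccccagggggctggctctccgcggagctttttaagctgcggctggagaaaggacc
Rcan1 upstream start: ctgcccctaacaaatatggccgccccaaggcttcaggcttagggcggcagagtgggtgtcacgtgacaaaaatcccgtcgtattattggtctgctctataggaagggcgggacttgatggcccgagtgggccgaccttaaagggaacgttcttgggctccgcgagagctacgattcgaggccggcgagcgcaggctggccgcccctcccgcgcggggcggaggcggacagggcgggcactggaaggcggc
Itpr2: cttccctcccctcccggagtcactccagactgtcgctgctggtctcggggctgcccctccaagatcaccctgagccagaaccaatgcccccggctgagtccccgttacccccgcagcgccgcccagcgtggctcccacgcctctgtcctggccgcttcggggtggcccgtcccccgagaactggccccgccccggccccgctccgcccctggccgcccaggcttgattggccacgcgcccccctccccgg
Itpr3: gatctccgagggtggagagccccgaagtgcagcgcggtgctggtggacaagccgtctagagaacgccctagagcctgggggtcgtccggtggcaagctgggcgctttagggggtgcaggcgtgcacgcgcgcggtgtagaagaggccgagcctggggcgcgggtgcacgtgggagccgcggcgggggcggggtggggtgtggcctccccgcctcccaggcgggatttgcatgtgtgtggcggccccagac

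The downstream Rcan1 window held 3 NFAT cores, 1 AP-1 site (TGANTCA) and 2 matches to TGACG from the cAMP response element, these 2 overlapping each other on opposite strands. The upstream Rcan1 window held no NFAT core and 1 E-box (CANNTG). The Itpr2 window held none of these 4 motifs, and the Itpr3 window held 2 E-boxes alone. No match of one motif overlapped a match of another in these windows. RefSeq windows were found for 8 of the 10 genes, 10 windows in all, and not for Itpr1 and Atp2a2. An NFAT core stood in 2 of the 10, the downstream Rcan1 window and 1 of the windows of Atp2b1. Over all 32851 promoter windows of this length, 55.6% held at least 1 NFAT core and 6.39% held 3 or more, 6.75% held the AP-1 site, 66.2% an E-box and 17.8% TGACG. Such matches describe letters and not binding.

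In the 4H group, Itpr2 fell to 0.568 of its CON level, while the calcium pump genes Atp2a2 and Atp2b1 and the channel gene Orai1 rose to 1.22, 1.28 and 1.24 times theirs. Itpr1, Itpr3, Stim1 and Rcan1 did not pass the test, and Ryr1 and Atp2a1 were too low to be tested. Differences were tested with limma on log2(FPKM + 0.5) in the 11593 genes whose mean over all libraries reached 0.5 FPKM, and a gene was called at an adjusted p of at most 0.05. Of the 8 genes tested, 3 were called higher, against 22.6% of all tested genes, and 1 was called lower, against 24.1%. None reached an absolute log2 fold change of 1 with that p, which 3.88% of all tested genes reached. The study set this threshold too, but with DESeq2 and not with this fit. The count of the 8 genes past that fold was also 0 at an unadjusted p under 0.05. The median log2 fold change of the 8 genes was 0.13, against -0.01 over all genes tested, and the median absolute value was 0.22, against 0.19. The groups did not overlap in 7 of the 8 genes, 5 higher and 2 lower in the 4H group, and in 56.7% of all genes tested.

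**Figure D1:**
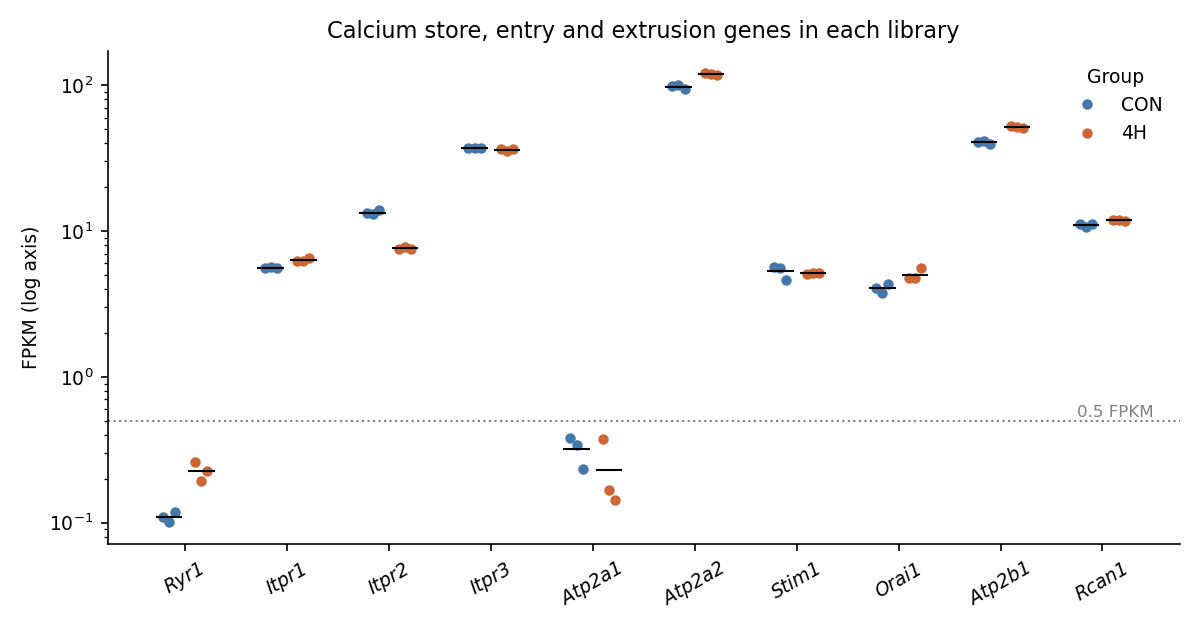
FPKM of the 10 genes on a log axis, with 1 point for each library (CON blue, 4H orange) and a bar at the mean of 3. The dotted line marks 0.5 FPKM, the mean needed for testing. Itpr2 shows the widest gap between the groups among the tested genes, and Ryr1 and Atp2a1 lie below the line in every library.

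The levels spanned from Atp2a2, above 95.3% of the tested genes by its mean over the 6 libraries, down to Ryr1. In the CON group the order was Atp2a2, Atp2b1, Itpr3, Itpr2, Rcan1, Itpr1, Stim1, Orai1, Atp2a1 and Ryr1, and of neighbours in it only Itpr1 and Stim1 had overlapping ranges. In the 4H group Rcan1 stood above Itpr2, and the rest of the order was as in CON. There Stim1 and Orai1 overlapped, as did Atp2a1 and Ryr1.

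Of the release channels, the IP3 receptors carried nearly all of the signal. Ryr1, the channel that releases store calcium in excitation of skeletal muscle, was at 0.110, 0.101 and 0.118 FPKM in CON replicates 1, 2 and 3 and at 0.260, 0.192 and 0.228 FPKM in 4H replicates 1, 2 and 3. Every 4H value lay above every CON value, at a mean of 0.110 ± 0.008 FPKM (SD, n = 3) in CON and 0.227 ± 0.034 FPKM in 4H. A two-sided exact permutation test gave p = 0.1, the smallest that 3 libraries against 3 allow. Without the filter on low values, limma gave Ryr1 a log2 fold change of 0.25 with an adjusted p of 0.0102, on a scale where the added 0.5 outweighs its level. The opposite-strand genes Gm26604 and Gm44408 share exon sequence with Ryr1 (chr7:29003344-29125179, minus strand). The libraries were made strand-specific, but whether the counting used strand is not given in the sources used here.

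Itpr2 encodes the IP3 receptor subtype with the highest affinity for IP3. It lies on chr6:146108299-146502223, minus strand. Its level was 13.2, 13.0 and 14.0 FPKM in the CON libraries and 7.48, 7.78 and 7.57 FPKM in the 4H libraries, with no overlap. The mean fell from 13.4 ± 0.498 to 7.61 ± 0.154 FPKM (SD, n = 3 each), and the log2 fold change was -0.78 (SE 0.05, 95% interval -0.90 to -0.65, limma adjusted p = 1.21e-05). Of all tested genes, 6.85% had a larger absolute log2 fold change. Itpr2 was called lower in all 16 alternative settings, with log2 fold changes of -0.81 to -0.74 and adjusted p-values of 1.12e-05 to 0.000291.

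Itpr1, the subtype best known from neurons, is on chr6:108213096-108551109, plus strand. It was at 5.56, 5.67 and 5.59 FPKM in CON and at 6.24, 6.25 and 6.52 FPKM in 4H. All 4H values were above the CON values, yet the difference did not pass the test (log2 fold change 0.16, SE 0.06, 95% interval 0.02 to 0.30, limma adjusted p = 0.0590). It was called in 2 of the 16 alternatives, limma without a trend (adjusted p = 0.0177) and values rescaled to a common sum, TPM (adjusted p = 0.0331), and its adjusted p reached 0.149 in the others. The opposite-strand genes Gm44040 and Gm44101 share exon sequence with it.

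Itpr3, the subtype typical of secretory and dividing cells, is on chr17:27057304-27122223, plus strand. It was the most abundant of the receptors, at 37.1, 36.9 and 37.2 FPKM in CON and 36.3, 35.3 and 36.4 FPKM in 4H. The 4H values were all slightly below the CON values, but the difference did not pass the test (log2 fold change -0.04, SE 0.03, 95% interval -0.12 to 0.04, limma adjusted p = 0.352). No alternative called it, and its log2 fold change ranged from -0.048 to -0.0027 over them, with -0.0047 in TPM. Its exons are shared in part with Mir7677 on the same strand and Itpr3os on the other.

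FPKM is scaled to transcript length, so the subtypes can be set against each other within a library. Itpr2 held 23.7%, 23.4% and 24.6% of the summed FPKM of the IP3 receptors in the CON libraries and 14.9%, 15.8% and 15.0% in the 4H libraries. Itpr3 held 66.1% ± 0.490 in CON and 72.1% ± 0.502 in 4H, and Itpr1 held 10.0% ± 0.181 and 12.7% ± 0.220 (SD, n = 3 each). The share of Itpr2 differed by -8.66 percentage points (4H minus CON), with no overlap, and those of Itpr1 and Itpr3 by 2.68 and 5.99 points. Each of the 3 shares had a two-sided exact permutation p of 0.1, the smallest possible, and 0.125 after adjustment over the 5 receptor tests. The log2 ratio differed (4H minus CON) by 0.94 for Itpr1 to Itpr2, 0.20 for Itpr1 to Itpr3 and -0.74 for Itpr2 to Itpr3. None of these ratios overlapped between the groups (each exact permutation p = 0.1, adjusted over 9 pairs 0.129). The summed level of the receptors went from 56.0 ± 0.581 to 50.0 ± 0.566 FPKM without overlap (exact p = 0.1, adjusted 0.125). The sum of Itpr1 and Itpr3 alone was 42.7 ± 0.085 FPKM in CON and 42.3 ± 0.689 FPKM in 4H, and these ranges overlapped (exact p = 0.7, adjusted 0.7). In TPM, with every library scaled to the same total, that sum was 107.6 ± 0.054 in CON and 109.6 ± 1.97 in 4H, a difference of the opposite sign that again left the ranges overlapping.

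**Figure D2:**
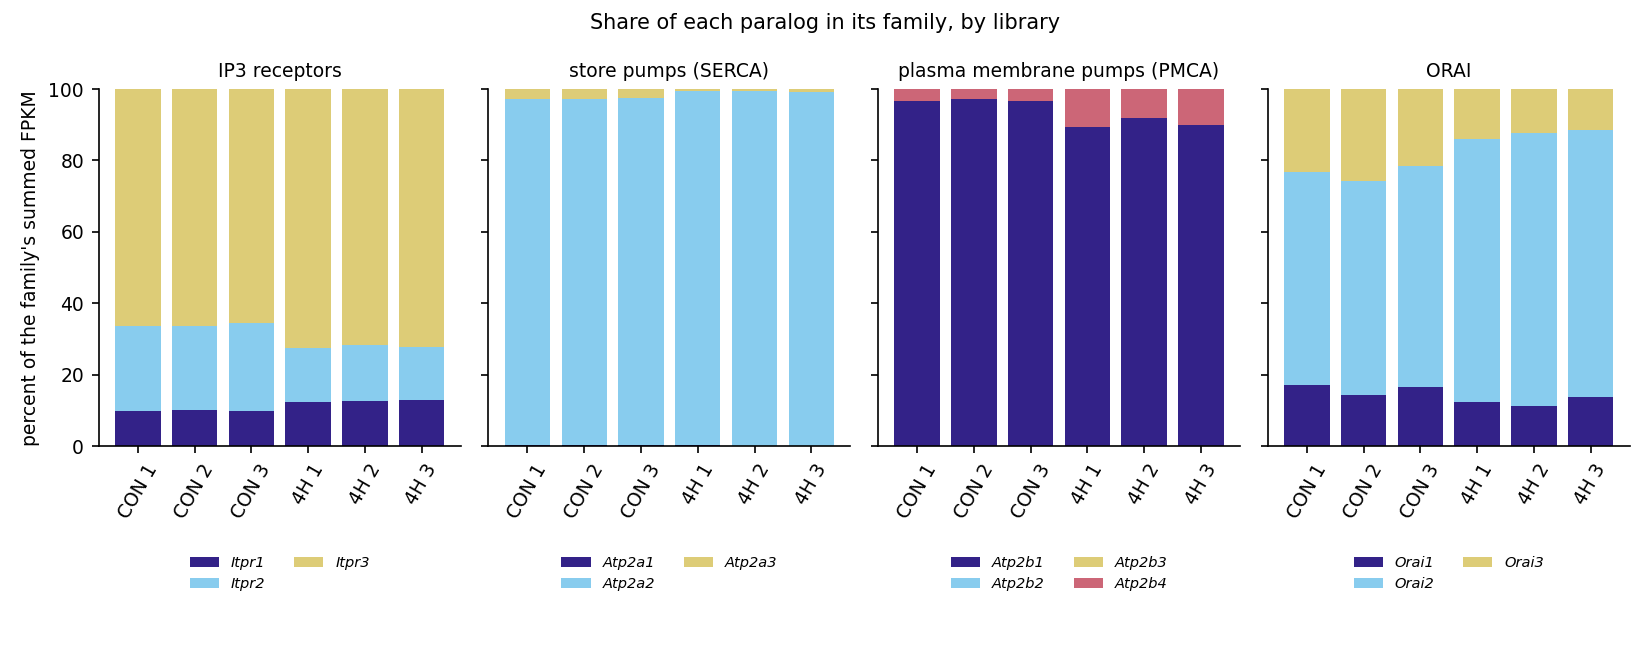
Percent of the summed FPKM of a family held by each paralog, with 1 bar for each library, for the IP3 receptors, the SERCA store pumps, the PMCA plasma membrane pumps and the ORAI channels. In the 4H bars Itpr2 takes 14.9% to 15.8% of the IP3 receptors against 23.4% to 24.6% in CON, Atp2b4 takes a larger part of the PMCA pumps and Orai2 a larger part of the ORAI channels.

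The 3 tested genes whose log2 values were most like those of Itpr2 over the 6 libraries were Ugt1a6a (Pearson r = 0.9999), Rpl7 (r = 0.9997) and Rps6 (r = 0.9997). Ugt1a6a, a glucuronosyltransferase gene, went from 9.77 to 3.28 FPKM on average. The ribosomal protein genes Rpl7 and Rps6 went from 731 to 560 FPKM and from 1004 to 741 FPKM. The 6 points are 2 groups of 3 libraries, so r is given as a description.

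Of the store pumps, Atp2a2 was the most abundant of all 10 genes. It encodes SERCA2, whose splice forms serve slow muscle, heart and nearly all other cells, and lies on chr5:122453513-122502225, minus strand. It was at 98.4, 99.9 and 94.0 FPKM in CON and at 121, 119 and 118 FPKM in 4H, with no overlap. The mean rose from 97.4 ± 3.09 to 119 ± 1.48 FPKM (SD, n = 3 each), and the log2 fold change was 0.29 (SE 0.03, 95% interval 0.22 to 0.36, limma adjusted p = 0.000171). All 16 alternatives called it higher, with adjusted p-values of 0.000113 to 0.00247. Gm43361 on the other strand shares exon sequence, and 2.21% of its 75-base stretches recur in transcripts of other genes.

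Atp2a1 encodes SERCA1, the pump of fast muscle fibres, and lies on chr7:126445858-126463108, minus strand. It was at 0.381, 0.342 and 0.235 FPKM in CON and at 0.378, 0.169 and 0.142 FPKM in 4H. The groups overlapped, since 4H replicate 1 lay among the CON values (two-sided exact permutation p = 0.3). Rabep2, an opposite-strand gene that shares exon sequence with Atp2a1, was at 5.33 to 5.67 FPKM in CON and 5.55 to 6.01 FPKM in 4H, well above Atp2a1 in each library. The log2 ratio of Atp2a2 to Atp2a1, with 0.5 FPKM added to both, was higher by 0.47 in 4H without overlap (exact p = 0.1, adjusted over 9 pairs 0.129).

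The third SERCA gene, Atp2a3, is not among the 10 genes and encodes the pump best known from blood and epithelial cells. It was at 2.98, 3.00 and 2.50 FPKM in CON and 0.814, 0.800 and 0.954 FPKM in 4H (log2 fold change -1.29, SE 0.11, limma adjusted p = 4.56e-05). Its share of the SERCA sum was 2.81% in CON and 0.712% in 4H, and that of Atp2a2 was 96.9% and 99.1%. The summed SERCA level was 101 ± 3.43 FPKM in CON and 120 ± 1.56 FPKM in 4H.

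Stim1 and Orai1 were the genes chosen for store-operated entry, and only their RNA was measured. Stim1, the sensor of store calcium, is on chr7:102267806-102437319, plus strand. It was at 5.66, 5.59 and 4.61 FPKM in CON and at 5.06, 5.13 and 5.19 FPKM in 4H. CON replicate 3 lay below all 4H values and the other two CON libraries above them, so the groups overlapped. The log2 fold change was -0.04 (SE 0.09, 95% interval -0.24 to 0.17, limma adjusted p = 0.766), which left room for changes of either sign. Leaving out CON replicate 3 gave -0.12, and leaving out CON replicate 1 or CON replicate 2 turned the sign, to 0.01 and 0.0035.

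Orai1, the pore of the entry channel, is on chr5:123015074-123030456, plus strand. It was at 4.08, 3.74 and 4.31 FPKM in CON and at 4.77, 4.73 and 5.56 FPKM in 4H, where every library lay above the CON libraries. The mean rose from 4.04 ± 0.283 to 5.02 ± 0.467 FPKM (SD, n = 3 each), and the log2 fold change was 0.28 (SE 0.09, 95% interval 0.07 to 0.49, limma adjusted p = 0.0334). The call was kept in 11 of 16 alternatives. It was lost without CON replicate 1 (adjusted p = 0.0711), without CON replicate 2 (0.101), without 4H replicate 3 (0.105), without the filter on low values (0.0626) and with quantile normalization (0.0631). Gm2479 on the opposite strand shares exon sequence with Orai1.

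The log2 ratio of Stim1 to Orai1 was lower by 0.32 in 4H, with overlap of the groups (exact permutation p = 0.2, adjusted 0.2). Stim2, which senses smaller losses of store calcium, was more abundant than Stim1 and went from 10.7 ± 0.635 to 12.5 ± 0.574 FPKM (log2 fold change 0.22, SE 0.06, limma adjusted p = 0.0207). That call was kept in 12 of 16 alternatives. Among the libraries left out in turn, it was lost without CON replicate 1 (adjusted p = 0.0579), without CON replicate 3 (0.0710) and without 4H replicate 3 (0.0693). The log2 ratio of Stim1 to Stim2 was lower by 0.26, without overlap (exact p = 0.1, adjusted 0.129).

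Orai2, a paralog that can form channels together with Orai1, showed the widest gap of the entry genes. It was at 14.2, 15.5 and 16.1 FPKM in CON and at 28.2, 32.2 and 29.8 FPKM in 4H (log2 fold change 0.96, SE 0.06, limma adjusted p = 1.03e-05). Orai3 was at 5.94 ± 0.627 FPKM in CON and 5.05 ± 0.365 FPKM in 4H and did not pass the test (limma adjusted p = 0.0894). The log2 ratio of Orai1 to Orai3 was higher by 0.49 in 4H (exact p = 0.1, adjusted 0.129). The summed ORAI level was 25.3 ± 1.24 FPKM in CON and 40.2 ± 1.89 FPKM in 4H, a ratio of 1.59. Orai2 held 60.4% of it in CON and 74.9% in 4H, Orai1 16.04% and 12.5%, and Orai3 23.5% and 12.6%. Orai1 therefore took a smaller share of a larger sum, although its own level was higher.

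Atp2b1, the gene of the widespread plasma membrane pump PMCA1, was the gene chosen for calcium extrusion, and only its RNA was measured. It lies on chr10:98914406-99026143, plus strand. It was at 40.7, 41.3 and 39.7 FPKM in CON and at 52.4, 52.0 and 50.8 FPKM in 4H, and the groups were far apart against their spread. The mean rose from 40.6 ± 0.767 to 51.8 ± 0.833 FPKM (SD, n = 3 each), and the log2 fold change was 0.35 (SE 0.03, 95% interval 0.27 to 0.42, limma adjusted p = 7.30e-05). All 16 alternatives called it higher, with adjusted p-values of 5.06e-05 to 0.000914. The store pump Atp2a2 and Atp2b1 rose by 0.29 and 0.35 on the log2 scale, and their log2 ratio was lower by 0.06 in 4H without overlap (exact permutation p = 0.1, adjusted 0.129).

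Its paralog Atp2b4 encodes PMCA4, a pump known to bind calcineurin. It was at 1.39, 1.19 and 1.32 FPKM in CON and at 6.24, 4.67 and 5.66 FPKM in 4H (log2 fold change 1.73, SE 0.12, limma adjusted p = 1.03e-05). In the annotation it shares exon sequence with 1 other gene on the same strand, between which reads could have been split. Its share of the PMCA sum was 3.11% in CON and 9.63% in 4H, and that of Atp2b1 96.9% and 90.4%. Atp2b2 and Atp2b3 were listed at 0 in the CON libraries. The PMCA sum went from 41.9 ± 0.713 to 57.3 ± 1.22 FPKM, a ratio of 1.37. The family sums and shares other than those of the IP3 receptors are descriptions without a test.

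Rcan1, whose protein binds and restrains calcineurin and whose downstream promoter is shown above, is on chr16:92391953-92470867, minus strand. It was at 11.2, 10.7 and 11.1 FPKM in CON and at 11.9, 11.9 and 11.7 FPKM in 4H. The groups did not overlap, but the difference did not pass the test (log2 fold change 0.10, SE 0.05, 95% interval -0.01 to 0.21, limma adjusted p = 0.128). None of the 16 alternatives called it (adjusted p 0.0552 to 0.281). The upper bound of 0.21 holds for the gene as a whole and says nothing of its starts apart.

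Of its paralogs, Rcan2 went from 1.37 ± 0.243 to 2.22 ± 0.531 FPKM (log2 fold change 0.53, SE 0.16, limma adjusted p = 0.0292). That call was lost without CON replicate 1 (adjusted p = 0.0890), CON replicate 3 (0.0855), 4H replicate 1 (0.0855) or 4H replicate 2 (0.0634), and also without the filter (0.0579) and with quantile normalization (0.0632). Rcan3 went from 7.19 ± 0.376 to 8.81 ± 0.472 FPKM (log2 fold change 0.28, limma adjusted p = 0.0107) and was called in all 16 alternatives. The log2 ratio of Rcan1 to Rcan2 was lower by 0.43 in 4H, with overlap (exact permutation p = 0.2, adjusted 0.2). Rcan1 held 56.2% of the RCAN sum in CON and 51.8% in 4H.

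**Figure D3:**
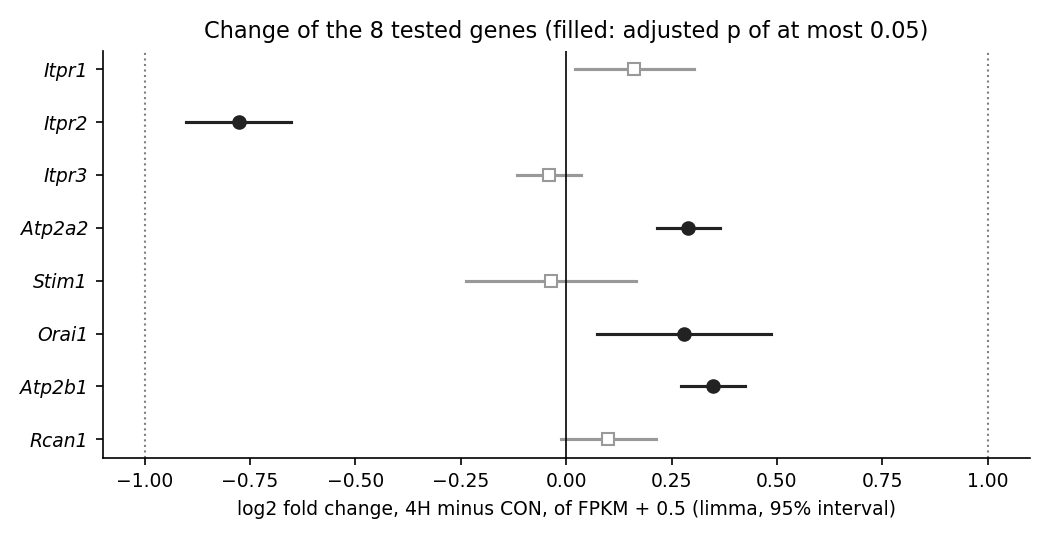
Log2 fold change of the 8 tested genes, 4H minus CON, on log2(FPKM + 0.5), with the 95% interval from limma. Filled circles have an adjusted p of at most 0.05, open squares do not, and dotted lines mark a log2 fold change of 1 in either direction. Itpr2 lies at -0.78, and Atp2b1, Atp2a2 and Orai1 lie between 0.28 and 0.35.

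The rest of the calcium pathway was described by 10 lists chosen by role, with 132 names other than the 10 genes. Of these, 88 were tested, 41 were below the filter and 3 had no row. Of the 88, 33 were called higher (22.6% of all tested genes were), 16 lower (24.1% of all) and 39 were not called. Their median log2 fold change was 0.10, against -0.01 over all genes tested, and 2 were past the fold threshold of the study, Atp2b4 and Atp2a3. Orai2, at 0.96, also passed it in TPM (log2 fold change 1.01) and without 4H replicate 1 (1.00). Some of the list genes named share exon sequence with other genes on the same strand, Itprip and Hsp90b1 with 2 and Rcan3 and Atp2b4 with 1, and their reads could have been split. Asph, Ppp3cc, Plcb3, Hsp90b1, Pdia3 and Camk1 overlap exons of opposite-strand genes.

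Around the release channels, 4 of 11 tested partners were called higher and 1 lower, with a median of 0.18. Jph2, which holds the store membrane close to the plasma membrane, went from 12.7 to 18.0 FPKM (log2 fold change 0.50, SE 0.06, limma adjusted p = 0.000421). Asph, whose locus also encodes the store proteins junctin and junctate, went from 27.0 to 23.3 FPKM (-0.21, SE 0.05, limma adjusted p = 0.00860). Of the dihydropyridine receptor subunits, 4 of 5 tested were called higher and none lower, with a median of 0.37. Cacng1, the gamma subunit of the skeletal muscle channel, went from 13.8 to 23.8 FPKM (0.77, SE 0.06, limma adjusted p = 2.02e-05). The other 4 subunits of that list, 3 of them pore subunits, were below the filter.

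Of the store pumps and their regulators, 2 genes could be tested, of which Atp2a3 was called lower. Of the store-operated entry genes, 5 of 9 tested were called higher and none lower, with a median of 0.32. Besides Orai2 and Stim2, Homer1, a scaffold of calcium channels, went from 5.44 to 8.73 FPKM (0.63, SE 0.09, limma adjusted p = 0.000822). Of the extrusion genes, 3 of 4 tested were called higher, with a median of 0.17, led by Atp2b4.

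The calcineurin and NFAT list was the one with the most calls lower, 6 of 12 tested, with 3 higher and a median of -0.09. The catalytic subunit genes Ppp3ca and Ppp3cb went from 25.3 to 17.8 FPKM (-0.49, SE 0.05, limma adjusted p = 0.000159) and from 50.8 to 38.6 FPKM (-0.39, SE 0.05, limma adjusted p = 0.000318). Both were called in all 16 alternatives. Ppp3cc, the third, went from 10.9 to 9.34 FPKM (-0.21, limma adjusted p = 0.0418), a call kept in 7 of 16 alternatives. It was lost without CON replicate 1 (adjusted p = 0.132), CON replicate 2 (0.108) or 4H replicates 1, 2 or 3 (0.0682, 0.0547 and 0.124). No filter (0.0652), limma without a trend (0.0502), array weights (0.0550) and TPM (0.0852) also ended it. Nfatc4, an NFAT factor, went from 1.86 to 0.986 FPKM (-0.67, SE 0.12, limma adjusted p = 0.00203).

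In the list for IP3 generation and removal, which also holds proteins that bind IP3 receptors, 12 of 15 tested genes were not called, 2 were higher and 1 lower, with a median of 0.04. Plcb3, a phospholipase C that makes IP3, went from 27.996 to 38.3 FPKM (0.44, SE 0.04, limma adjusted p = 4.40e-05), and it was the only one of the 3 called genes whose protein makes or removes IP3. Itprip, whose protein binds IP3 receptors, went from 29.3 to 45.4 FPKM (0.62, SE 0.05, limma adjusted p = 3.10e-05). Ahcyl1, known as an IP3 receptor binding protein released by IP3, went from 73.9 to 64.6 FPKM (-0.19, SE 0.03, limma adjusted p = 0.00139).

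Of the calcium-binding proteins in the store lumen, 5 of 11 tested were called higher and 2 lower, with a median of 0.11. Hsp90b1, a chaperone of the store lumen, went from 279 to 463 FPKM (0.73, SE 0.03, limma adjusted p = 1.67e-06). Calr, which encodes the calcium buffer calreticulin, went from 409 to 641 FPKM (0.65, SE 0.03, limma adjusted p = 1.91e-06), and Pdia3, a disulfide isomerase, from 157 to 235 FPKM (0.58, SE 0.03, limma adjusted p = 1.68e-06). Rcn1, a low-affinity calcium binder, went from 98.7 to 72.4 FPKM (-0.44, SE 0.03, limma adjusted p = 2.27e-05).

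In the list for mitochondrial calcium uptake, 2 of 10 tested genes were called higher and 4 lower, with a median of -0.03. Slc8b1, which is on that list but encodes the exchanger that carries calcium out of mitochondria, went from 9.08 to 13.3 FPKM (0.53, SE 0.06, limma adjusted p = 0.000191). Mcur1, a regulator of the uniporter, went from 5.80 to 4.87 FPKM (-0.23, SE 0.08, limma adjusted p = 0.0459). The call of Mcur1 was kept in 8 of 16 alternatives. It was lost without any 1 of CON replicates 1, 2 and 3 (adjusted p = 0.111, 0.122 and 0.0599) and without 4H replicate 2 or 3 (0.128 and 0.123). Other settings that ended it included no filter (0.0768) and TPM (0.0874). Of calmodulin and its kinases, 5 of 9 tested were called higher and 1 lower, with a median of 0.14. Camk2g went from 27.4 to 37.3 FPKM (0.44, SE 0.07, limma adjusted p = 0.000835) and Camk1 from 38.6 to 23.1 FPKM (-0.73, SE 0.04, limma adjusted p = 3.65e-06). Both encode calmodulin-dependent kinases.

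**Figure D4:**
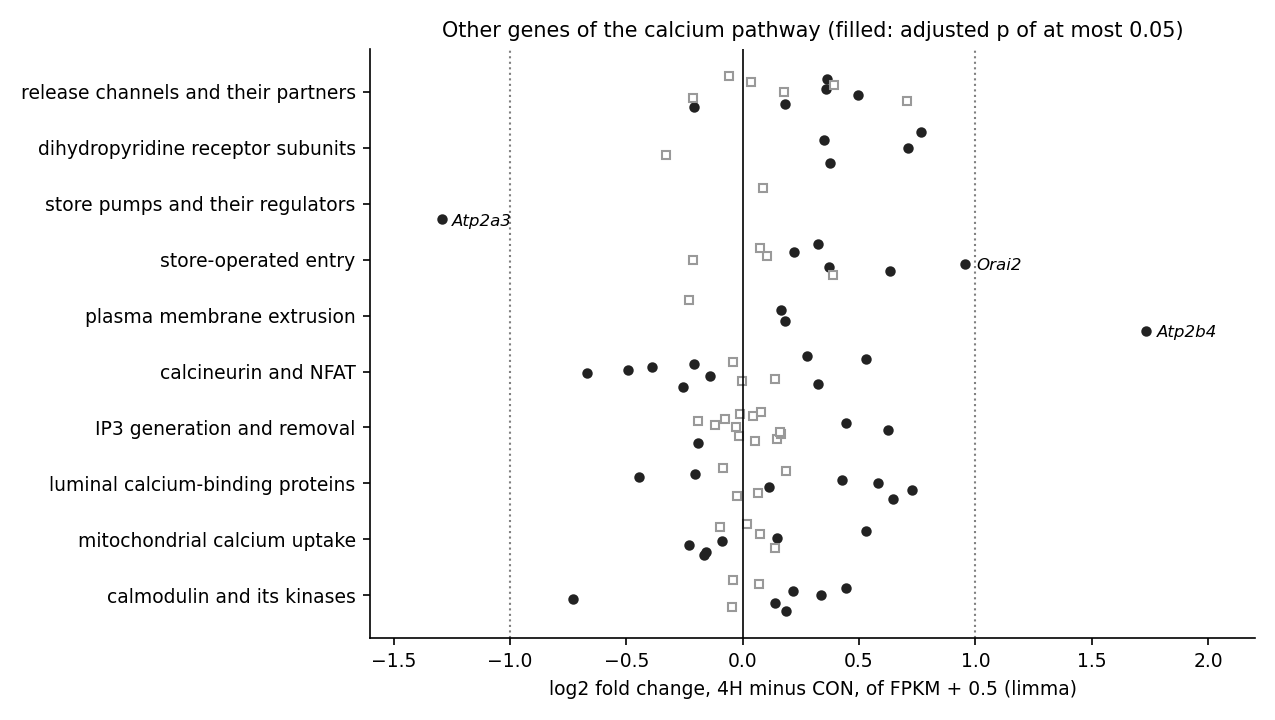
Log2 fold change, 4H minus CON, of the 88 tested genes of the 10 lists, 1 row for each list and 1 point for each gene. Filled circles have an adjusted p of at most 0.05 and open squares do not. Atp2b4 at 1.73 and Atp2a3 at -1.29 lie past the dotted lines at 1 and -1, and Orai2 lies just inside at 0.96.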

How the data were processed

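The data were RNA-seq of 3 CON and 3 4H libraries of C2C12 cells, grouped by their labels. The authors deposited 1 table of FPKM values with 1 column for each library and no replicates pooled. Per the labels, the libraries were poly(A)-selected, strand-specific and sequenced in pairs, and the submitters' processing notes name mm10. What aligner, assembler, counter or annotation was used is not given in the sources used here. All columns were used. Depth is unknown, so precision rests on the spread of 3 libraries.

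The 11593 genes whose mean over all libraries reached 0.5 FPKM were fitted by limma 3.58.1 in R 4.3.3 (lmFit, then eBayes with a mean trend, and group as the only term) on log2(FPKM + 0.5), two-sided, with Benjamini-Hochberg adjustment over all of them. A fold change on this scale understates that of low genes. A second rule, with the threshold of the study but not its DESeq2 fit, also asked for a log2 fold change of 1 or more in size. The limma step was also run on simulated data, where far fewer genes changed than were called here. That run says nothing of false calls in these data. Shares of the IP3 receptors and log2 ratios of 9 pairs of genes were tested with two-sided exact permutation tests over libraries (SciPy 1.17.1), adjusted within each family. Tables and plots used Python 3.11.15, pandas 2.3.3, numpy 2.4.6 and matplotlib 3.10.9.

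The members, lists and tests were chosen with earlier results of these data known. The text names all 10 members, the genes of each list past the fold threshold, its called genes with the largest rise and the largest fall, and the 3 genes most like the called member with the largest change. Ppp3ca, Ppp3cb, Ppp3cc, Rcan3, Calr, Pdia3, Homer1 and Plcb3 were added with their values in view, and the sums over the SERCA, PMCA, STIM, ORAI and RCAN families and the motifs were also chosen after the values were seen. Stim2, Orai3 and Rcan2 belong to the tested pairs. Positions and shared exons came from GENCODE M21 (GRCm38) and promoters from RefSeq (GRCm38.p6), of which the 250 bases before the start were read. The lists' names had a row in the table under their symbol for all but 3, Erln, Arln and Tmem110, the last an older symbol of Stimate.

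Alternatives were pseudocounts of 0.1 and 1, no filter and a filter at 1 FPKM, the replicate number as a block, array weights, no trend in limma, scaling to TPM, to the median of ratios or by quantiles, and each library left out in turn.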

Additional observations from a re-analysis of the deposited data

How the results depend on the processing

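Over the 16 alternatives to each limma result, 2 to 4 members were called higher, 1 was called lower and none passed the fold threshold, and 40 to 49 list genes were called, against 49 of the 88 tested in the report. Settings that change the filter or its input test other genes. Without the filter Ryr1 was tested and called higher, while Orai1 was not called. Itpr2, Atp2a2 and Atp2b1 kept their direction and call in all 16, Itpr1 was called in 2 and Orai1 in 11. Stim1 turned its sign without CON replicate 1 or CON replicate 2, and its log2 fold change ranged from -0.12286 to 0.012093 when 1 library was left out (0.003531 without CON replicate 2). The IP3 receptor shares kept their direction without any 1 library. With a pseudocount of 0.1, the difference in the log2 ratio of Atp2a2 to Atp2a1 was 0.69 in place of 0.47, since Atp2a1 lies below the added 0.5 FPKM. No scaling moved the median of all tested genes by over 0.1 on the log2 scale.

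The libraries share replicate numbers in their descriptions but no stated batch. The deviations of libraries with the same such number from their group means correlated at 0.02, -0.09 and -0.13. These numbers were therefore not taken to pair the libraries. By these numbers, none of the 3 CON libraries correlated best with the 4H library of its own number. The titles of 4H replicates 1, 2 and 3 run 4H1, 4H3 and 4H4, however. CON replicate 3, titled C3, correlated best with 4H replicate 2, titled 4H3. Pairing by title was not tested further. With the replicate number as a block, 3 members were called higher and 1 lower, as without it, and 44 list genes were called. The block ended the calls of Stim2 (limma adjusted p = 0.0529) and Mcur1 (limma adjusted p = 0.0649) among the genes named.

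The FPKM values are given without fragment counts, and the depth is unknown, so their counting error was not estimated. For Ryr1 and Atp2a1 the spread of 3 libraries is therefore the only guide to precision.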
